A study of Mus musculus with 8 samples.

Results

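The genes described here encode the enzymes and transporters that take glucose to pyruvate, pyruvate to lactate, and pyruvate into mitochondria, together with the kinases that regulate the latter step and the transcription factor Hif1a. They were taken as a list of 36 symbols, and all 36 were among the 14042 genes in the deposited tables, with no filter on low values. They were measured by RNA sequencing in 8 mouse libraries in 4 groups of 2. Naive WT and naive KO libraries were made from CD4 T cells flow sorted as CD62Lhi and CD44 lo, of wild type (WT) or C5aR1-/- (here KO) mice, the latter lacking a receptor for the complement fragment C5a. TFH WT and TFH KO libraries were made from donor CD4 cells sorted as CXCR5+PD1hi, a pattern found on T follicular helper (TFH) cells, which help B cells in germinal centres. The hosts were (bxd)F1 mice, whose spleens were taken 7 days after they received 10000000 CD8-depleted spleen cells of a WT or C5aR1-/- donor. C5aR1 was absent from the donor cells of the TFH KO group, and the labels give the F1 hosts no genotype at that gene. TFH and naive libraries thus differ in the transfer and the host as well as in the sort, and these cannot be told apart. The strain and age of the mice, any pooling, and whether the libraries of a group are separate animals are not stated in the labels. The p-values thus reflect the spread among these libraries. That spread may be technical, except in the naive KO group, whose 2 libraries differ in sex-linked genes (below) and so are not of the same animal.

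Glycolysis splits glucose into pyruvate and yields a small amount of ATP in the cytosol. Pyruvate is then either reduced to lactate and exported, or carried into mitochondria by the pyruvate carrier and oxidised to acetyl-CoA by the pyruvate dehydrogenase complex. Pyruvate dehydrogenase kinases phosphorylate and inactivate that complex. Naive T cells rely largely on mitochondrial oxidation, activated T cells raise glycolysis, and both HIF1A and MYC can drive transcription of glycolytic genes.

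Levels are the deposited log2 values, and a change is the log2 difference of group means ± standard error (SE), with n = 2 libraries per group. Changes were tested with limma, with Benjamini-Hochberg adjustment over all 14042 genes, and a gene is said to have risen or fallen where its adjusted p was below 0.05. The depth of the libraries is unknown. The targeted gene, C5ar1, was not analysed here, which leaves the genotype labels unchecked at that gene. Cxcr5, a sort marker of the TFH libraries, lay between 10.9 and 11.6 in them and between 11.6 and 12.5 in the naive libraries. Its transcript fell by 0.80 ± 0.24 across genotypes (adjusted p = 0.0496), against the direction of the sort. Pdcd1, which encodes the other sort marker PD1, differed by 0.97 ± 0.36 (adjusted p = 0.108) and was not called. Il21, a TFH cytokine, lay between 9.6 and 10.4 in TFH libraries against 7.3 to 8.2 in naive ones. The median of 9 T cell identity genes was 14.84 to 15.16 in naive and 14.32 to 14.81 in TFH libraries. Markers of other cells had values in all libraries, as had all 14042 genes. The median of 16 myeloid markers was 9.25 to 10.66 in naive and 6.91 to 8.98 in TFH libraries, that of 9 CD8 and NK cell markers was 10.11 to 10.68 against 8.51 to 9.17, and that of 12 B cell markers was 8.76 to 9.95 against 7.73 to 11.36. Replicate 2 of both TFH groups stood apart from replicate 1, with B cell medians of 9.79 (WT) and 11.36 (KO) against 7.73 and 7.74, and myeloid medians of 8.62 and 8.98 against 6.91 and 7.39. Counts without both of these libraries are given in the closing section. No marker was at 0. Naive KO replicate 1 stood apart in sex-linked genes, with Xist at 14.61 and Ddx3y at 5.67, a female pattern. The other 7 libraries had Xist at 4.44 to 5.56 and Ddx3y at 12.54 to 13.16, a male pattern. Sex thus differs within the naive KO group. Pgk1, Pdk3 and Pdha1 lie on the X chromosome, and the part of sex in their values was not tested. In bulk RNA, fewer cells of a type and less RNA per cell cannot be told apart. Fits with marker medians as covariates are given below. The myeloid median did not overlap between naive and TFH libraries, so such a fit cannot separate it from the label. The part of other cells in these results was not tested.

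Across both genotypes, 12 of the 36 genes rose and 5 fell in TFH against naive libraries. Of the 12 rises, 7 were in the later part of the pathway. There, 7 of the 8 genes from triose phosphate to pyruvate rose and the remaining one, Eno1, fell, while none of the 9 genes from hexose phosphate to triose passed the test. Pdk1, a kinase that restrains pyruvate oxidation, fell by 0.996 ± 0.09 (adjusted p = 1.06e-05), and Hif1a, the oxygen-regulated transcription factor subunit, rose by 0.96 ± 0.13 (adjusted p = 3.96e-04). Among all genes 18.3% rose and 19.8% fell in this comparison, 38.1% in all, and among these genes 33.3% rose and 13.9% fell. The median change was 0.11 over the 36 genes and 0.00 over all genes.

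The promoters shown are those of the 4 genes called in both genotypes separately, Slc2a1, Pgam1, Pdk1 and Hif1a, 3 upward and 1, Pdk1, downward. They are not all of the shared difference, since other genes, such as Gapdh and Pkm, lay higher in TFH libraries of both genotypes. They are RefSeq windows of 300 bases on GRCm38.p6 that span the annotated start, read 5′ to 3′ on the plus strand, which is the coding strand of all 4. Capitals mark matches, on either strand, to CACGTG, the E-box known to bind MYC dimers, and to ACGTG and GCGTG, the core of the hypoxia response element.
Slc2a1: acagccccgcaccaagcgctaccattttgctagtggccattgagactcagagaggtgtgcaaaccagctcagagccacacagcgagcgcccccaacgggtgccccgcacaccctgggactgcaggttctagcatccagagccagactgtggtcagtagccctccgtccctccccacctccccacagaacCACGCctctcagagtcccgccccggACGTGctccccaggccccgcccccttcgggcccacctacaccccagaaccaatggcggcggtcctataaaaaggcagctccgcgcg
Pgam1: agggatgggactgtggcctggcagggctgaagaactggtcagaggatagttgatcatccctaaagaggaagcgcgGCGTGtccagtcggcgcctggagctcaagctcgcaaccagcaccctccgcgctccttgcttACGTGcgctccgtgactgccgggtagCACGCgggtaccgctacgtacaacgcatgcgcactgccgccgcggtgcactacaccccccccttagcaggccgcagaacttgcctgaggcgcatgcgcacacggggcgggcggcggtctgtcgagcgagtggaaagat
Pdk1: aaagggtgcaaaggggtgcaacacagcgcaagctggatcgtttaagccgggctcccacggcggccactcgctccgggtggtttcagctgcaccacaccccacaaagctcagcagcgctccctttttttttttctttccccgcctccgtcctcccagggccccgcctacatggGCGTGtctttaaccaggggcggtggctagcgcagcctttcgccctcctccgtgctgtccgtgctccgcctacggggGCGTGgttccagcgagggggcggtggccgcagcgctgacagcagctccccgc
Hif1a: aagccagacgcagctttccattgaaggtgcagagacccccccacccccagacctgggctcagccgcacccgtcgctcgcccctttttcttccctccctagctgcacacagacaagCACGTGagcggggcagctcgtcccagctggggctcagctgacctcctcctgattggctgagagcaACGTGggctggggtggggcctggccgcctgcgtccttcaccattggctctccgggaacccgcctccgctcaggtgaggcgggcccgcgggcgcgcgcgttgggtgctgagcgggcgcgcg
The windows lie at chr4:119108495-119108794 for Slc2a1, chr19:41911621-41911920 for Pgam1, chr2:71872974-71873273 for Pdk1 and chr12:73907617-73907916 for Hif1a. The table listed 2 windows for Pdk1, of which the more upstream is printed. Counted from the annotated start, matches began at -61 and -36 for Slc2a1, at -175, -114 and -88 for Pgam1, at -78 and -2 for Pdk1 and at -135 and -70 for Hif1a. The first match in Hif1a is a whole CACGTG, which contains ACGTG on both strands.

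Windows were listed for 35 of the 36 genes (52 windows), with Slc2a3 not matched. ACGTG on either strand was found in 24 of these windows (46.2%), where 19.6% of all 32851 windows hold it, and GCGTG in 28 (53.8%), where 32.4% hold it. CACGTG was found in 7 windows (13.5%), against 7.15% of all windows. Among genes that rose across genotypes, 9 of 13 windows held ACGTG, among genes that fell 1 of 7, and among genes not called 14 of 32. GCGTG was found in 6 of those 13, in 5 of those 7 and in 17 of those 32. One or the other was found in 10 of the 13 (76.9%), 6 of the 7 (85.7%) and 24 of the 32 (75%). The 7 windows belong to only 4 genes, and some windows of Eno1 overlap. A match describes these letters and is not evidence of binding.

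Glucose enters T cells through facilitative transporters of the Slc2a family, and these divided. Slc2a1, which encodes GLUT1 (chr4:119108711-119137983, plus strand, GENCODE vM21 on GRCm38), had levels of 11.10 and 11.29 in naive WT, 10.997 and 11.35 in naive KO, 11.64 and 11.70 in TFH WT and 11.67 and 11.83 in TFH KO libraries. All 4 TFH libraries lay above all 4 naive libraries, and Slc2a1 rose by 0.48 ± 0.13 in WT (adjusted p = 0.0192) and by 0.57 ± 0.13 in KO (adjusted p = 0.0101). Dropping the first naive WT library gave a WT adjusted p of 0.137, and dropping either TFH WT library gave 0.0655 to 0.103. The KO adjusted p was 0.0755 without naive KO replicate 1 and 0.0806 without TFH KO replicate 2. Slc2a3, which encodes the high-affinity transporter GLUT3 (chr6:122727809-122801640, minus strand), had levels of 11.77 and 11.69 in naive WT, 11.71 and 11.78 in naive KO, 11.34 and 11.42 in TFH WT and 11.67 and 11.42 in TFH KO libraries. All 4 TFH libraries lay below the naive libraries, TFH KO replicate 1 only narrowly. Slc2a3 fell by 0.35 ± 0.11 in WT (adjusted p = 0.0337), a call lost without any one of the 4 WT libraries (adjusted p 0.0842 to 0.177). In KO its difference was -0.20 ± 0.11 (adjusted p = 0.234).

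Hexokinases trap glucose in the cell as glucose-6-phosphate. Hk2, the isoform typical of activated T cells (chr6:82725025-82774454, minus strand), had levels of 8.18 and 7.46 in naive WT, 7.99 and 7.90 in naive KO, 8.93 and 8.70 in TFH WT and 7.87 and 8.69 in TFH KO libraries. Both TFH WT libraries and TFH KO replicate 2 were above every naive library, and TFH KO replicate 1 was not. Hk2 rose by 1.002 ± 0.30 in WT (adjusted p = 0.036), a doubling on the linear scale, and its difference in KO was 0.33 ± 0.30 (adjusted p = 0.502). The WT call was lost without naive WT replicate 2 (0.64, adjusted p = 0.202), either TFH WT library (adjusted p 0.0945 to 0.17) or either naive KO library (adjusted p 0.0571 to 0.0573).

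Hk3, a hexokinase known mainly from myeloid cells (chr13:55005985-55021385, minus strand), had levels of 9.89 and 8.68 in naive WT, 8.49 and 8.996 in naive KO, 7.57 and 8.16 in TFH WT and 7.47 and 8.23 in TFH KO libraries. All 4 TFH libraries lay below the naive libraries, with naive WT replicate 1 the highest. Hk3 fell by 1.156 ± 0.34 across genotypes (adjusted p = 0.0425), a call lost without either naive KO library, either TFH WT library or TFH KO replicate 1 (adjusted p 0.0735 to 0.136). The myeloid marker median was also highest in naive WT replicate 1 (10.66). With that median as a covariate the Hk3 difference was -0.29 (adjusted p = 0.43 in limma). The median did not overlap between naive and TFH libraries, so this fit cannot separate it from the label. Hk1, the isoform of most resting cells, ranged from 13.02 to 13.30 over all 8 libraries and differed by 0.07 ± 0.07 (adjusted p = 0.51).

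**Figure D1:**
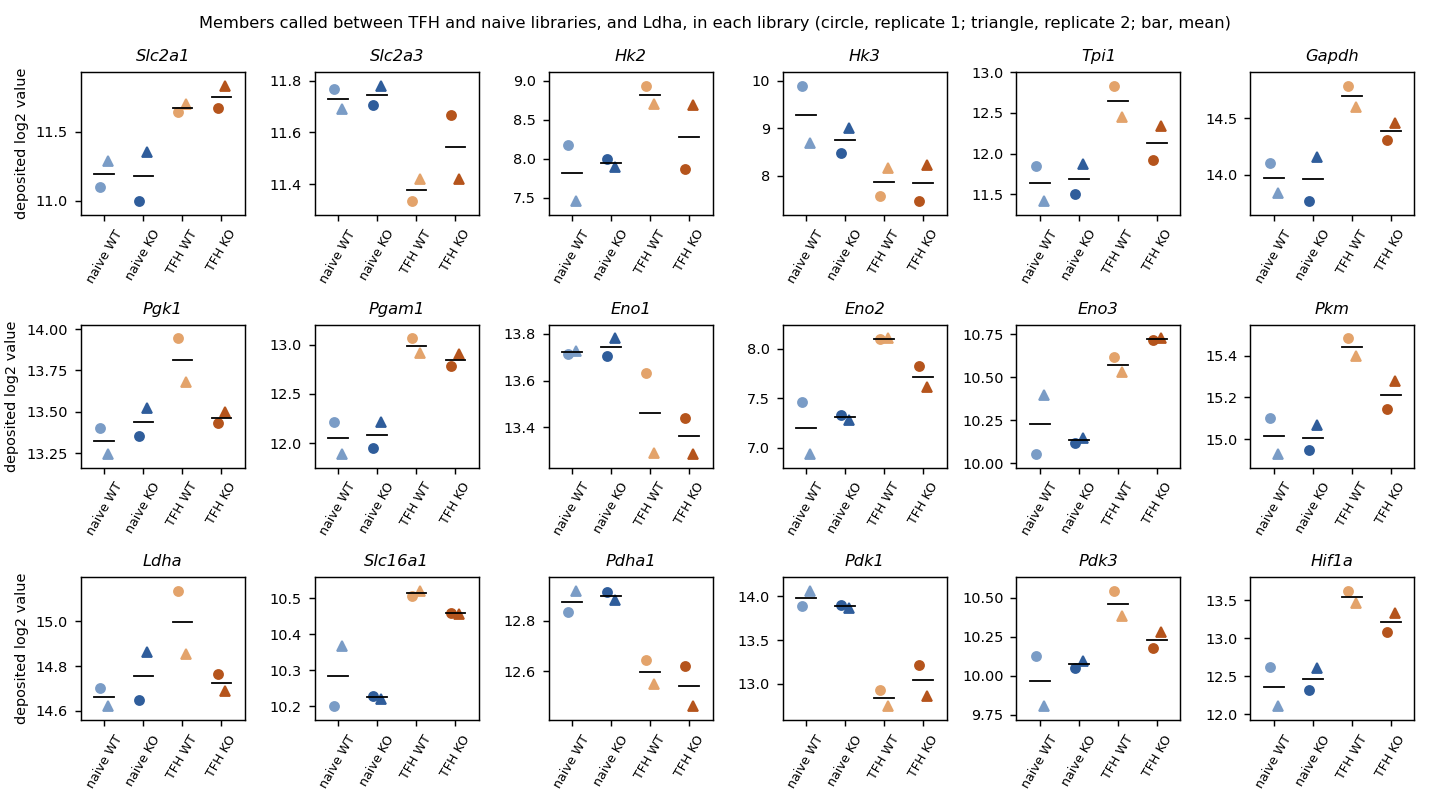
Deposited log2 value (vertical axes, each with its own range and not starting at 0) of the 17 genes that rose or fell across genotypes, and of Ldha, in each of the 8 libraries by group; circles are replicate 1, triangles replicate 2 and bars group means. Slc2a1, Pgam1 and Hif1a sit higher and Pdk1 lower in all 4 TFH libraries, while Hk2, Tpi1 and Pgk1 are spread widely among TFH libraries.

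The genes that convert hexose phosphate to triose phosphate showed no call in WT, in KO or across genotypes. Their differences across genotypes had a median of 0.10, and 7 of 9 were positive. Phosphofructokinase commits sugar to glycolysis, and none of its 3 subunit genes passed the test. Pfkl was 11.81 to 11.88 in naive libraries and 12.06 to 12.14 in TFH WT, but 11.74 and 12.02 in TFH KO. Pfkp, the platelet-type subunit that lymphocytes also express, was 12.58 to 12.80 in naive, 12.69 and 12.84 in TFH WT, and 12.43 and 12.65 in TFH KO libraries. Pfkm, the muscle-type subunit, was 10.42 to 10.46 in naive and 10.46 to 10.59 in TFH libraries.

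Gpi1, the isomerase of glucose-6-phosphate, was 14.42 to 14.57 in naive and 14.49 to 14.74 in TFH libraries. The bifunctional enzymes that set the level of the phosphofructokinase activator fructose-2,6-bisphosphate showed overlapping ranges: Pfkfb2 at 8.78 to 9.10 and 8.63 to 8.9999, Pfkfb3 at 12.50 to 12.62 and 12.58 to 12.81, and Pfkfb4 at 9.67 to 9.78 and 9.66 to 9.90, naive before TFH. Aldolase, which splits the hexose, likewise overlapped, with Aldoa at 14.19 to 14.50 and 14.16 to 14.55 and Aldoc at 7.32 to 8.01 and 7.501 to 8.34. These ranges pool the genotypes. Within WT, both TFH libraries lay above both naive ones for Gpi1, Pfkl, Pfkm, Pfkp, Pfkfb3 and Aldoc, and overlapped for Pfkfb2, Pfkfb4 and Aldoa. Such an order was seen in WT for 63.9% of the 36 genes and 33.1% of all genes. The smallest adjusted p among these 9 genes was 0.101 in WT, for Pfkl.

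**Figure D2:**
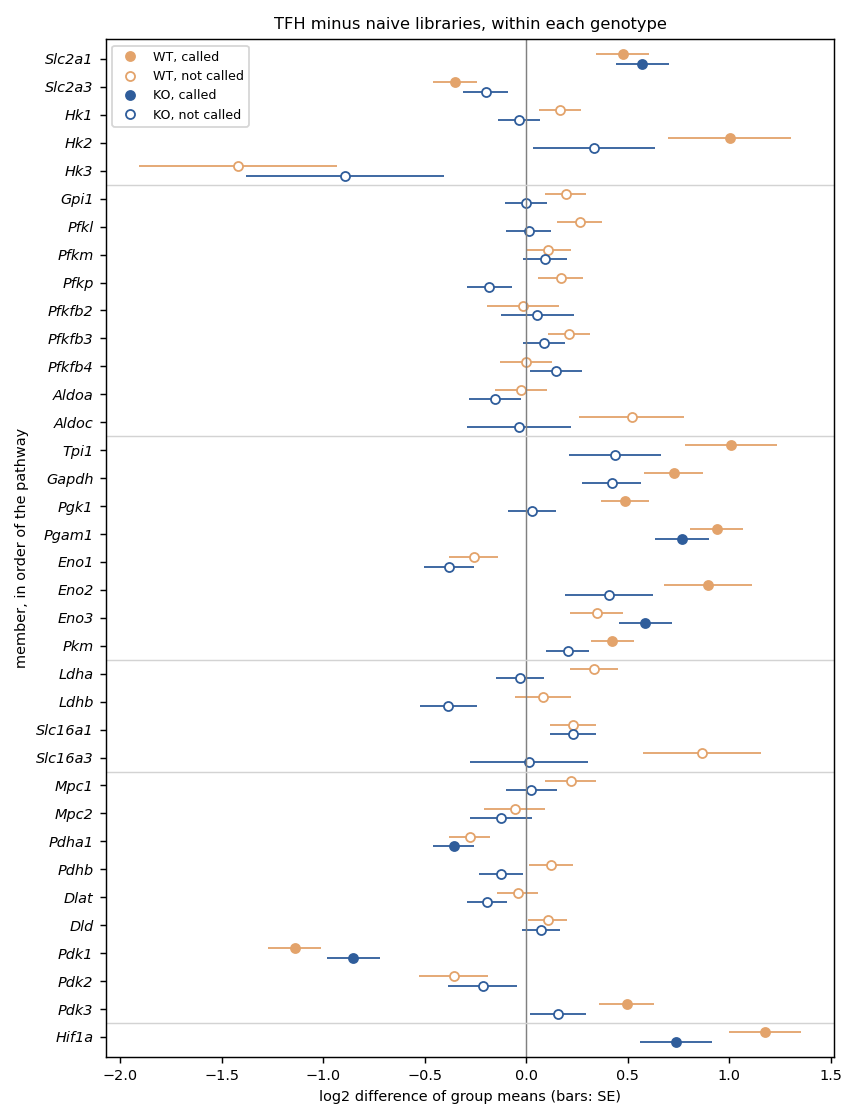
Log2 difference between TFH and naive libraries (horizontal axis; bars are SE) for each of the 36 genes, in WT (orange) and KO (blue), in pathway order from top to bottom with grey lines between steps; filled points were called. The filled points gather in the block from Tpi1 to Pkm, which holds 6 of the 12 WT calls, and the block from Gpi1 to Aldoc holds none.

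The 8 genes of the later part of glycolysis, which yields ATP and NADH, had a median difference of 0.61 in WT and 0.42 in KO. Tpi1, which interconverts the triose phosphates, had levels of 11.85 and 11.42 in naive WT, 11.51 and 11.88 in naive KO, 12.83 and 12.46 in TFH WT and 11.92 and 12.34 in TFH KO libraries. All TFH libraries lay above the naive ones, though TFH KO replicate 1 exceeded the highest naive library by little, and Tpi1 rose by 1.01 ± 0.23 in WT (adjusted p = 0.0172). That p was 0.0702 without naive WT replicate 2 and 0.0874 without TFH WT replicate 1. In KO its difference was 0.44 ± 0.23 (adjusted p = 0.237). Gapdh, which makes NADH at the next step and is often used as a reference gene, had levels of 14.10 and 13.83 in naive WT, 13.76 and 14.16 in naive KO, 14.79 and 14.60 in TFH WT and 14.31 and 14.46 in TFH KO libraries. Here too no TFH library overlapped the naive ones, and Gapdh rose by 0.73 ± 0.15 in WT (adjusted p = 0.00437), with a difference of 0.42 ± 0.15 in KO (adjusted p = 0.0662).

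Pgk1 makes the first ATP of the pathway and had the smallest interaction p of the 36 genes. Its levels were 13.40 and 13.25 in naive WT, 13.35 and 13.52 in naive KO, 13.94 and 13.68 in TFH WT and 13.43 and 13.50 in TFH KO libraries. Both TFH WT libraries were above every naive library, whereas both TFH KO libraries lay within the naive range. It rose by 0.49 ± 0.12 in WT (adjusted p = 0.011; 0.0908 without naive WT replicate 2 and 0.112 without TFH WT replicate 1), and the KO difference was 0.03 ± 0.12 (adjusted p = 0.902). The interaction, which tests whether these changes differ, was -0.46 ± 0.17 with a 95% interval of -0.83 to -0.09, an unadjusted p of 0.019 and an adjusted p of 0.997 in limma.

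Pgam1, phosphoglycerate mutase (chr19:41911923-41918660, plus strand), had the strongest evidence of any rise. It was at 12.21 and 11.89 in naive WT, 11.95 and 12.21 in naive KO, 13.06 and 12.92 in TFH WT and 12.79 and 12.91 in TFH KO libraries. The lowest TFH library exceeded the highest naive library by more than the spread within either set of naive replicates. Pgam1 rose by 0.94 ± 0.13 in WT (adjusted p = 4.23e-04) and by 0.77 ± 0.13 in KO (adjusted p = 0.00197).

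The enolases, which form phosphoenolpyruvate, moved in opposite directions. Eno1, the ubiquitous form, was at 13.72 and 13.73 in naive WT, 13.70 and 13.78 in naive KO, 13.63 and 13.29 in TFH WT and 13.44 and 13.29 in TFH KO libraries. Every TFH library was below every naive library, TFH WT replicate 1 the nearest, and Eno1 fell by 0.32 ± 0.09 across genotypes (adjusted p = 0.0127). Without TFH WT replicate 2 the fall was -0.23 (adjusted p = 0.0615). Eno2, the form typical of neurons, was at 7.46 and 6.94 in naive WT, 7.33 and 7.28 in naive KO, 8.09 and 8.10 in TFH WT and 7.82 and 7.61 in TFH KO libraries. It did not overlap and rose by 0.90 ± 0.22 in WT (adjusted p = 0.0106), with a KO difference of 0.41 ± 0.22 (adjusted p = 0.221). The WT call was lost without naive WT replicate 2 (adjusted p = 0.0869) or either TFH WT library (adjusted p 0.0558 to 0.0625). Eno3, the form typical of muscle, was at 10.06 and 10.40 in naive WT, 10.12 and 10.15 in naive KO, 10.62 and 10.53 in TFH WT and 10.72 and 10.73 in TFH KO libraries. It also did not overlap, and rose by 0.59 ± 0.13 in KO (adjusted p = 0.00846), with a WT difference of 0.35 ± 0.13 (adjusted p = 0.0686).

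Pkm, pyruvate kinase, completes glycolysis. Its levels were 15.10 and 14.93 in naive WT, 14.95 and 15.07 in naive KO, 15.48 and 15.40 in TFH WT and 15.14 and 15.28 in TFH KO libraries. The TFH libraries did not overlap the naive ones, the TFH KO pair being closest to them. Pkm rose by 0.43 ± 0.11 in WT (adjusted p = 0.012) and its KO difference was 0.20 ± 0.11 (adjusted p = 0.207). Without naive WT replicate 2 the WT adjusted p was 0.0957, and without TFH WT replicate 1 it was 0.0867. The values are per gene, so the spliced forms PKM1 and PKM2 were not separated.

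Pyruvate is reduced to lactate by lactate dehydrogenase and leaves through monocarboxylate transporters. Of these 4 genes only Slc16a1 was called, across genotypes alone. Slc16a1, which encodes the transporter MCT1, was at 10.20 and 10.37 in naive WT, 10.23 and 10.22 in naive KO, 10.51 and 10.52 in TFH WT and 10.46 and 10.46 in TFH KO libraries. The TFH libraries were all higher than the naive ones, and it rose by 0.23 ± 0.08 (adjusted p = 0.0394); leaving out any single library but naive WT replicate 2 ended the call (adjusted p 0.0749 to 0.119).

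Ldha, the lactate dehydrogenase subunit of glycolytic cells, did not pass the test with all 8 libraries. Its levels were 14.70 and 14.62 in naive WT, 14.65 and 14.86 in naive KO, 15.13 and 14.86 in TFH WT and 14.76 and 14.69 in TFH KO libraries. TFH WT replicate 1 stood highest, and TFH KO libraries lay within the naive range. The Ldha difference was 0.34 ± 0.12 in WT (adjusted p = 0.0591) and -0.03 ± 0.12 in KO (adjusted p = 0.892). In WT it passed without TFH WT replicate 2 (0.47, adjusted p = 0.0422) and with the B cell median as a covariate (0.32, adjusted p = 0.0431), and leaving out TFH WT replicate 1 brought it to 0.20. Ldhb was 10.56 to 11.12 in naive and 10.48 to 10.85 in TFH libraries. Slc16a3, the lactate exporter MCT4, was 7.70 to 8.26 in naive libraries, 9.19 and 8.41 in TFH WT and 7.88 and 8.41 in TFH KO, with an adjusted p of 0.0536 in WT.

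At the entry of pyruvate into oxidation the kinases diverged. Pdk1 (chr2:71873224-71903858, plus strand) had levels of 13.89 and 14.06 in naive WT, 13.91 and 13.87 in naive KO, 12.93 and 12.74 in TFH WT and 13.22 and 12.86 in TFH KO libraries. The naive and TFH libraries were far apart in both genotypes, and Pdk1 fell by 1.14 ± 0.13 in WT (adjusted p = 1.18e-04) and by 0.85 ± 0.13 in KO (adjusted p = 0.00104). Pdk3 was at 10.13 and 9.80 in naive WT, 10.05 and 10.09 in naive KO, 10.54 and 10.38 in TFH WT and 10.18 and 10.28 in TFH KO libraries. It showed the opposite order, without overlap, and rose by 0.50 ± 0.14 in WT (adjusted p = 0.0198), with a KO difference of 0.16 ± 0.14 (adjusted p = 0.475). Dropping naive WT replicate 2 (adjusted p = 0.15) or either TFH WT library (adjusted p 0.0507 to 0.142) ended the WT call. Pdk2 was 9.31 to 9.45 in naive and 8.90 to 9.36 in TFH libraries and was not called.

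Pdha1, the catalytic subunit that these kinases phosphorylate, was at 12.83 and 12.92 in naive WT, 12.91 and 12.88 in naive KO, 12.64 and 12.55 in TFH WT and 12.62 and 12.46 in TFH KO libraries. Every TFH library was lower than every naive library. Pdha1 fell by 0.36 ± 0.10 in KO (adjusted p = 0.0291) and by 0.32 ± 0.07 across genotypes (adjusted p = 0.00446), and its WT difference was -0.28 ± 0.10 (adjusted p = 0.0622). The KO call was lost without either naive KO library or TFH KO replicate 2 (adjusted p 0.0801 to 0.203). The partner subunits were not called. Pdhb was 12.28 to 12.57 in naive and 12.35 to 12.55 in TFH libraries, Dlat 10.85 to 10.996 and 10.77 to 10.86, and Dld 11.71 to 11.72 and 11.76 to 11.89. Nor were the carrier subunits, with Mpc1 at 10.65 to 10.996 and 10.79 to 11.0025 and Mpc2 at 10.06 to 10.44 and 10.06 to 10.24. Dld did not overlap between labels, its TFH libraries being the higher.

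Hif1a (chr12:73901375-73947530, plus strand) encodes the subunit that is degraded when oxygen is plentiful, so its transcript level is not a measure of its activity. Its levels were 12.62 and 12.10 in naive WT, 12.32 and 12.61 in naive KO, 13.62 and 13.46 in TFH WT and 13.09 and 13.33 in TFH KO libraries. Each TFH library was higher than each naive library, the TFH KO pair lower than the TFH WT pair. Hif1a rose by 1.18 ± 0.18 in WT (adjusted p = 0.00161) and by 0.74 ± 0.18 in KO (adjusted p = 0.02). The KO adjusted p was 0.11 without naive KO replicate 1 and 0.121 without TFH KO replicate 2.

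In WT alone, 10 of the 36 genes rose (27.8%, against 12.6% of all genes) and 2 fell (5.56%, against 13.7%). In KO alone, 4 rose (11.1%, against 9.12%) and 2 fell (5.56%, against 10.4%). The KO share of rises was thus near the background and the WT share above it. Slc2a1, Pgam1, Pdk1 and Hif1a were called in both, 8 genes in WT only, and Eno3 and Pdha1 in KO only. The matching shares of all genes were not counted, so this split is not shown to be particular to these genes. No interaction was called for any of the 36 genes, so a call in one genotype is not shown to differ from the other; 0.0142% of all genes had a called interaction, 0.00712% in each direction. Without naive KO replicate 1, 2 genes rose in KO (5.56%, against 6.4% of all genes in that fit) and 1 fell (2.78%, against 6.85%). In that setting Slc2a1 differed by 0.39 (adjusted p = 0.0755), Hif1a by 0.60 (adjusted p = 0.11) and Pdha1 by -0.34 (adjusted p = 0.0995), and Pgam1, Eno3 and Pdk1 remained called. Without TFH WT replicate 1, which had the lowest B cell and myeloid medians, 3 genes rose in WT (8.33%, against 7.58% of all genes in that fit), and without naive WT replicate 2, 5 did (13.9%, against 8.02%). With the myeloid median as a covariate, which cannot be separated from the label, 6 genes rose in WT (16.7%, against 8.58%). Slc2a1 (0.50, adjusted p = 0.114), Tpi1 (1.19, adjusted p = 0.061), Pgk1 (0.45, adjusted p = 0.108) and Pdk3 (0.60, adjusted p = 0.0613) lost their WT calls in that fit with changes of similar size, and Gapdh, Pgam1, Hif1a and Pdk1 kept theirs. Across genotypes, 8 genes rose in that fit (22.2%, against 13% of all genes), and Pgk1 (adjusted p = 0.218), Eno3 (0.33, adjusted p = 0.0834), Slc16a1 (0.18, adjusted p = 0.288), Pdk3 (adjusted p = 0.0614), Slc2a3 (adjusted p = 0.0821) and Hk3 (adjusted p = 0.43) lost their calls.

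Across genotypes, 11 genes lay higher in every TFH library than in every naive library (30.6%, against 18.2% of all genes) and 5 lay lower (13.9%, against 20.3%). The 11 were Slc2a1, Tpi1, Gapdh, Pgam1, Eno2, Eno3, Pkm, Slc16a1, Dld, Pdk3 and Hif1a, and the 5 were Slc2a3, Hk3, Eno1, Pdk1 and Pdha1. Hk2 and Pgk1 rose across genotypes with overlapping libraries, by 0.67 ± 0.21 (adjusted p = 0.0336) and 0.26 ± 0.08 (adjusted p = 0.031). Each lost that call in 8 of 16 alternatives, with adjusted p reaching 0.104 for Hk2 and 0.218 for Pgk1. For Hk2 these include the fits without either naive KO library, naive WT replicate 2, either TFH WT library or TFH KO replicate 2. For Pgk1 they include those without naive KO replicate 1, naive WT replicate 2, TFH WT replicate 1 or either TFH KO library. Within WT the libraries did not overlap for 23 genes with TFH higher (63.9%, against 33.1% of all genes) and 6 with TFH lower (16.7%, against 32%), and within KO for 13 with TFH higher (36.1%, against 27.6%) and 8 with TFH lower (22.2%, against 30.6%).

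**Figure D3:**
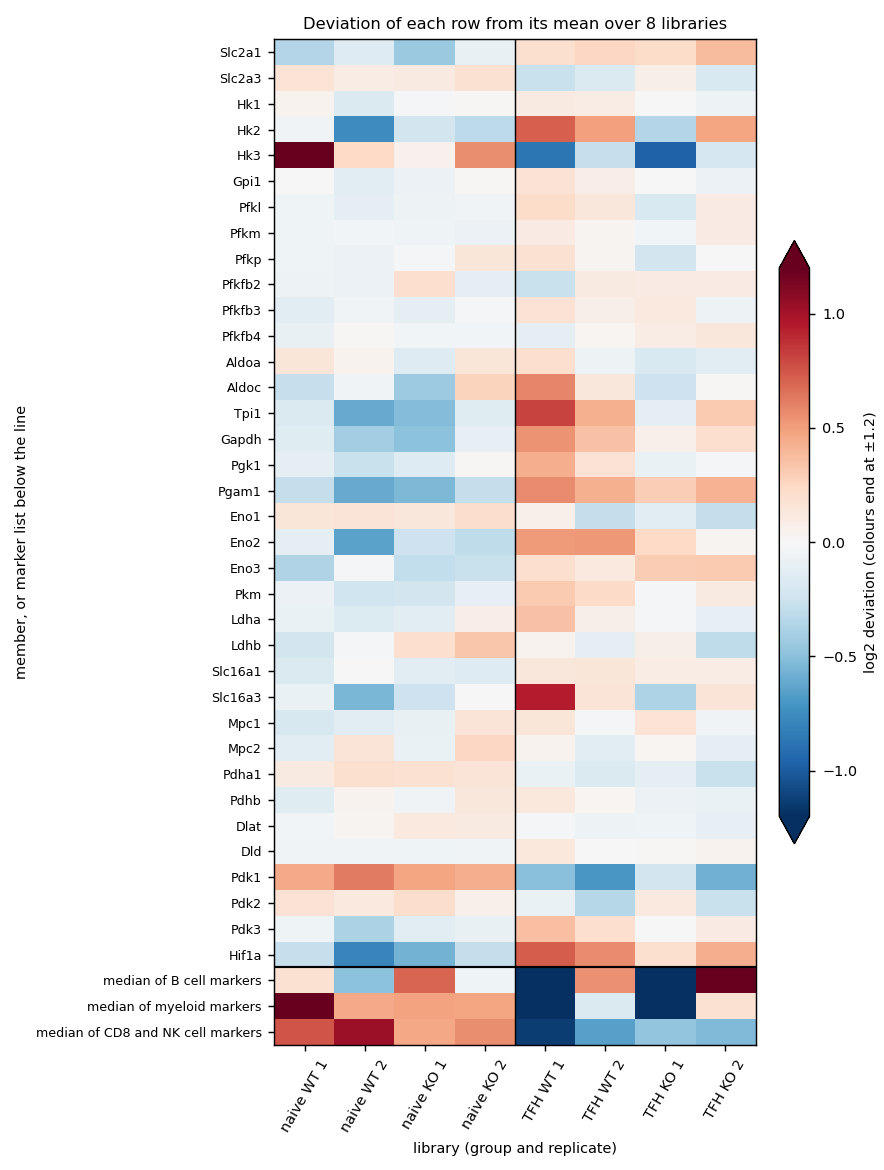
Deviation of each library (columns) from the mean over all 8 libraries, in log2 units (colour, with the scale ending at 1.2 either way), for the 36 genes in pathway order and, below the line, for the medians of 3 marker lists. TFH WT replicate 1 has the strongest red column among the TFH libraries and the lowest medians of CD8 and NK cell, myeloid and B cell markers.

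Isoforms, and the carrier subunits Mpc1 and Mpc2, were also compared within each library. Transcript length and a constant scale factor of the library cancel when such a difference is compared between libraries. Quantile normalization is not a constant factor, and its effect need not cancel for genes at unlike levels. The comparisons are descriptions of 14 pairs, with no test, and a difference is not a ratio of protein. In 7 of the 14 pairs the TFH and naive libraries did not overlap. The share over all pairs of genes was not counted. For single genes, 18.2% of all genes did not overlap with TFH higher and 20.3% with TFH lower. The Slc2a, Eno and Pdk pairs hold genes called above, Eno1 and Pdk1 repeatedly, so their shifts in part restate those calls. Slc2a1 minus Slc2a3 was -0.71 to -0.40 in naive and 0.00 to 0.41 in TFH libraries, a shift toward Slc2a1. Eno1 minus Eno2 was 6.25 to 6.79 in naive and 5.19 to 5.68 in TFH libraries, and Eno1 minus Eno3 was 3.33 to 3.66 and 2.56 to 3.01, both shifts away from Eno1. Pdk1 minus Pdk3 was 3.77 to 4.26 in naive and 2.36 to 3.04 in TFH libraries, the widest of the shifts, and Pdk1 minus Pdk2 was 4.45 to 4.70 and 3.77 to 3.88. Smaller shifts were seen for Pfkl minus Pfkp, at -0.92 to -0.73 and -0.69 to -0.63, and for Mpc1 minus Mpc2, at 0.36 to 0.63 and 0.71 to 0.78. Hk1 minus Hk2 overlapped because of TFH KO replicate 1, at 5.32 where the other TFH libraries were 4.37 to 4.58. The pair of lactate dehydrogenase genes, and that of the lactate transporters, also overlapped.

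**Figure D4:**
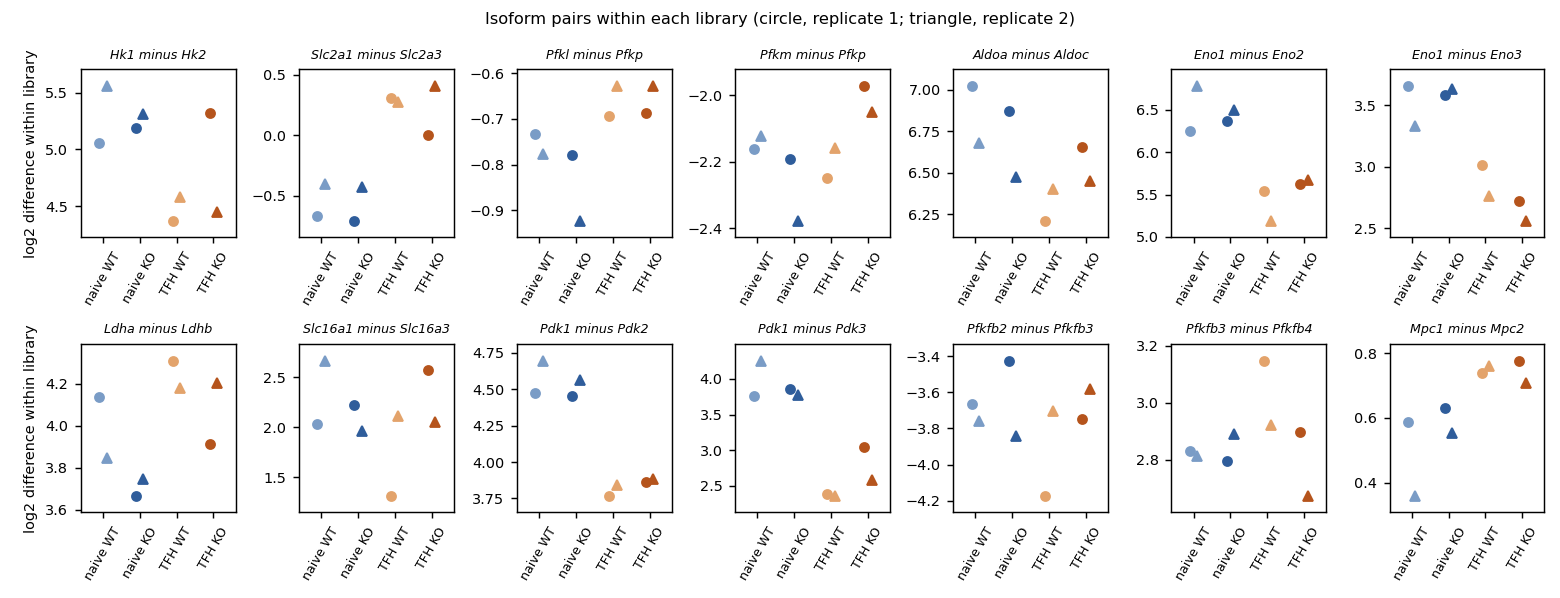
Log2 difference between 2 isoforms, or between the carrier subunits Mpc1 and Mpc2, within each library, by group, for 14 pairs. Each vertical axis has its own range, circles are replicate 1 and triangles replicate 2. The TFH libraries sit apart from the naive ones for the Slc2a, Eno and Pdk pairs and are mixed with them for Ldha minus Ldhb.

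Several of these genes have processed copies in the genome, and the reads were single-end, 51 bases long. Of the 51-base windows of the longest coding transcript, 82.4% for Gapdh, 71.9% for Eno1, 67.9% for Pgk1, 41.4% for Pgam1 and 33.7% for Pkm also occur in another annotated transcript, so their counts are uncertain if the counting split such reads. The share was 0 for Pdk1 and 1.71% for Slc2a1. It was 7.19% for both Tpi1 and Hif1a. Eno1b, a retrotransposed copy of Eno1 with a row of its own, fell by 0.28 ± 0.09 across genotypes (adjusted p = 0.0225). Gm12070, which shares windows with Gapdh, rose by 0.62 ± 0.10 (adjusted p = 8.69e-04), as did Gm13315, which shares windows with Ldha, by 0.32 ± 0.09 (adjusted p = 0.0138). Aldoart1, which shares windows with Aldoa, differed by 0.01 ± 0.08 (adjusted p = 0.956), where Aldoa differed by -0.09 ± 0.09 (adjusted p = 0.475).

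Neighbouring pathways and regulators were counted in the same way across genotypes, where 18.3% of all genes rose and 19.8% fell. Of 7 pentose phosphate genes none rose and 1 fell across genotypes (14.3%), Taldo1, transaldolase, by 0.26 ± 0.08 (adjusted p = 0.0253). Of 16 TCA cycle genes, 1 rose (6.25%) and 3 fell (18.8%). Fh1, fumarase, rose by 0.22 ± 0.08 (adjusted p = 0.0385). Sdha, the catalytic subunit of succinate dehydrogenase, fell by 0.46 ± 0.08 (adjusted p = 7.41e-04), and Sdhc and Ogdh also fell. Of 23 other measured genes of glycolysis and pyruvate metabolism, 2 rose (8.7%) and 7 fell (30.4%). Slc2a6, a glucose transporter family member, rose by 0.95 ± 0.17 (adjusted p = 0.00108) and Got1, the cytosolic aspartate aminotransferase, by 0.45 ± 0.08 (adjusted p = 6.55e-04). Pck2, mitochondrial PEP carboxykinase, fell by 0.57 ± 0.08 (adjusted p = 1.57e-04), and Pdpr, the regulatory subunit of pyruvate dehydrogenase phosphatase, by 0.67 ± 0.13 (adjusted p = 0.00243).

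Of 20 HIF pathway genes outside glycolysis, 2 rose (10%, against 18.3% of all genes) and 5 fell (25%, against 19.8%) across genotypes. Hif1a itself rose. Egln3, an oxygen-sensing prolyl hydroxylase, rose by 1.03 ± 0.28 (adjusted p = 0.0318). Ddit4, an inhibitor of mTORC1, fell by 1.38 ± 0.10 (adjusted p = 3.01e-06), Epas1, the gene of HIF2A, by 0.46 ± 0.11 (adjusted p = 0.00474), and Arnt, the partner of HIF1A, by 0.40 ± 0.09 (adjusted p = 0.00612). Of 14 regulators of T cell glycolysis, 6 rose (42.9%) and 3 fell (21.4%). Irf4, induced by antigen receptor signals, rose by 1.21 ± 0.13 (adjusted p = 1.13e-04), Myc by 0.85 ± 0.10 (adjusted p = 6.85e-05), and Txnip, an inhibitor of glucose uptake, by 0.47 ± 0.08 (adjusted p = 5.88e-04). Rptor, the mTORC1 scaffold, fell by 0.52 ± 0.08 (adjusted p = 3.24e-04).

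Loss of C5aR1 in the transferred cells was examined by setting TFH KO against TFH WT libraries. No gene of the 36, and 0% of all genes, passed the adjusted threshold in limma, while 506 of all genes and 3 of the 36 had an unadjusted p below 0.05. The differences leaned downward: 28 of 36 were negative with a median of -0.11, where 49.7% of all genes were negative with a median of 0.00. The groups did not overlap for 19 genes with KO lower (52.8%, against 16.5% of all genes) and for 2 with KO higher, Pfkfb4 and Eno3 (5.56%, against 16.5%). Genes of one pathway that vary together are not independent, and each group holds 2 libraries, so that the smallest two-sided p of an exact permutation test would be 0.33.

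The 3 genes with the smallest p were Pgk1, Ldha and Slc16a3. Pgk1 was 13.94 and 13.68 in TFH WT and 13.43 and 13.50 in TFH KO libraries, a difference of -0.35 ± 0.12 (95% interval -0.61 to -0.09). Ldha was 15.13 and 14.86 against 14.76 and 14.69, a difference of -0.27 ± 0.12 (95% interval -0.53 to -0.01). Slc16a3 was 9.19 and 8.41 against 7.88 and 8.41, a difference of -0.66 ± 0.29 (95% interval -1.31 to -0.00). Their adjusted p in limma was 1. For Tpi1 the difference was -0.52 ± 0.23 (95% interval -1.05 to 0.02), for Hif1a -0.34 ± 0.18 (-0.74 to 0.07), for Hk2 -0.54 ± 0.30 (-1.22 to 0.14) and for Pkm -0.23 ± 0.11 (-0.46 to 0.00). Slc2a1 (0.08 ± 0.13) and Pdk1 (0.20 ± 0.13) were on the positive side. With one library left out these differences ranged from -0.95 to -0.13 for Hk2, from -0.41 to -0.13 for Ldha, from -0.46 to -0.21 for Hif1a, from -0.30 to -0.16 for Pkm and from 0.02 to 0.38 for Pdk1. These intervals and ranges are wide, and they do not show that the groups are alike.

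The downward lean was present with any TFH library left out, the negative count staying between 26 and 29 of 36. Single libraries still weighed on it. TFH WT replicate 1 was the highest of the 4 TFH libraries for 23 of the 36 genes (63.9%, against 30.7% of all genes), and TFH KO replicate 1 was the lowest for 15 (41.7%, against 20.2%). The median difference was -0.08 when TFH WT replicate 1 was left out and -0.18 when TFH WT replicate 2 was. It was -0.13 and -0.11 when TFH KO replicates 1 and 2 were left out in turn.

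Other lists leaned to one side between TFH KO and TFH WT libraries as well, with no member of any passing the test. The closest pathways leaned the same way. All 16 TCA cycle genes were negative (median -0.07), as were 6 of 7 pentose phosphate genes (median -0.13) and 15 of 23 other genes of glycolysis and pyruvate metabolism (median -0.08). Markers of the sorted cells differed too. All 7 TFH markers were negative (median -0.58), and 5 of 6 naive T cell markers were positive (median 0.17). All 9 CD8 and NK cell markers were positive (median 0.66), as were 11 of 12 B cell markers (median 0.73) and 14 of 16 myeloid markers (median 0.31). The library medians of CD8 and NK cell markers were 8.51 and 8.995 in TFH WT and 9.17 and 9.12 in TFH KO, and those of TFH markers were 11.72 and 11.70 against 11.33 and 11.63. The part of these marker differences in the lean of the 36 genes was not tested.

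**Figure D5:**
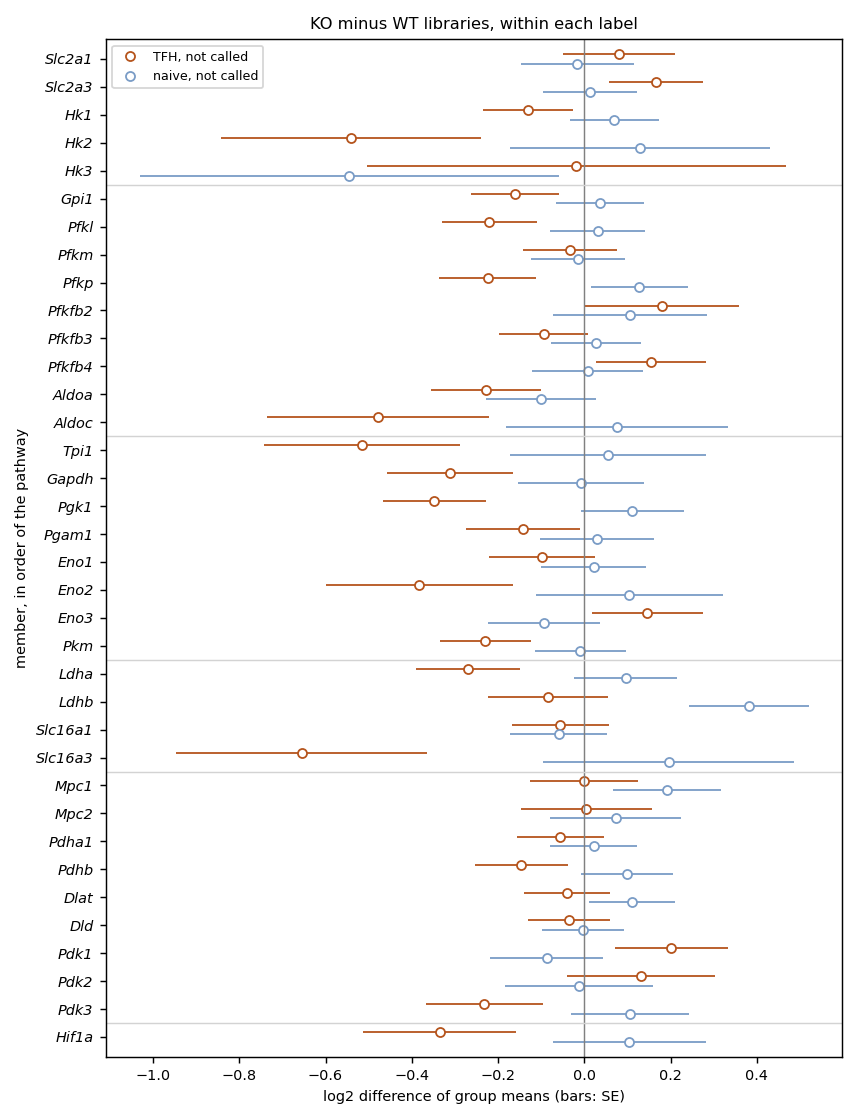
Log2 difference between KO and WT libraries (horizontal axis; bars are SE) for each of the 36 genes, in TFH (brown) and naive (light blue) libraries, in pathway order; all points are open because none was called. Most TFH points lie left of 0, 28 of 36, where 49.7% of all genes were negative. Most naive points lie right of 0, 25 of 36, and the share of all genes is not given for these.

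Naive KO and naive WT libraries were compared in the same way. None of the 36 passed the adjusted threshold in limma, as against 0.0712% of all genes, and 355 of all genes and 1 of the 36 had an unadjusted p below 0.05. That gene was Ldhb, the lactate dehydrogenase subunit of oxidative tissues, at 10.56 and 10.77 in naive WT and 10.98 and 11.12 in naive KO libraries. Its difference was 0.38 ± 0.14 (95% interval 0.08 to 0.69, adjusted p = 1). The largest difference was that of Hk3, at 9.89 and 8.68 in naive WT and 8.49 and 8.996 in naive KO libraries, -0.54 ± 0.49 (95% interval -1.74 to 0.65, adjusted p = 1), with overlapping libraries. The median difference was 0.03. With 2 libraries per group, a lack of calls does not show that the genotypes are alike. The 2 genotypes did not overlap, with KO higher, for Pfkp, Ldhb, Mpc1 and Dlat (11.1%, against 15.2% of all genes), and with KO lower for 0 genes, against 11.2% of all genes.

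The interaction was negative for 27 of the 36 genes, meaning a smaller or more negative TFH change in KO, with a median of -0.18. The share and median over all genes are not given here, so this lean is not shown to be particular to these genes. Unadjusted p was below 0.05 for 3 of them, Pgk1, Ldhb (-0.47 ± 0.20) and Pfkp (-0.35 ± 0.16), and for 614 of all genes. For Slc16a3 the interaction was -0.85 ± 0.41 and for Hif1a it was -0.44 ± 0.25, and the adjusted p was 0.997 for each of these genes in limma. The interaction shares its libraries with the comparisons above and is not separate evidence.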

How the data were processed

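Libraries were single-end, 51 bases, from standard mRNA preparations of total RNA, per the labels' protocols. Reads were handled with BWA and the mouse build mm10, per the submitters' processing notes; no counting tool or normalization is named there. The authors deposited 1 table of log2 values per library, from 1.16 to 19.48, for 14042 genes. Sorted values of the 8 libraries agree within 0.03 above the lowest percentile, so the deposited log2 values were quantile normalized and depth is unknown. All genes and libraries entered 1 limma model (3.58.1, R 4.3.3) with a mean per group, 4 residual degrees of freedom and trended, robust moderation; the trend was kept from earlier work that had seen results with and without it. The model was tested on simulated data. There were 6 comparisons, adjusted by Benjamini-Hochberg over all genes. The members, marker and pathway lists and tests were chosen with earlier results of these data known. Every member is named; of each other list the genes named come from up to 4 called by p. Alternatives are given in the closing section. Replicate numbers follow deposit order.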

Additional observations from a re-analysis of the deposited data

How the results depend on the processing

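No paired analysis was possible because the labels give the groups no shared replicate numbers. Alternatives were no trend, no robust option, only the groups compared, a filter on low genes, library weights, median centring, B cell or myeloid medians as covariates, each library left out, and replicate 2 of both TFH groups left out together. No gene of the 36 was called for KO against WT in TFH or naive libraries, or for the interaction, under any of them. In WT the number that rose was 6 with the myeloid covariate and 3 to 11 with one library left out, from 10, and the number that fell, from 2, was 1 without the trend or without replicate 2 of both TFH groups, 4 with the B cell covariate and 1 to 2 with one library left out. In KO the number that rose, from 4, was 1 without replicate 2 of both TFH groups and 2 to 5 with one library left out. The number that fell in KO, from 2, was 1 without the trend, with only the compared groups or without replicate 2 of both TFH groups, 4 with either covariate, and 1 to 3 with one library left out. Across genotypes, 7 rose and 1 fell without replicate 2 of both TFH groups, and 3 to 5 fell with one library left out, from 12 and 5. With any single library left out, the number that rose across genotypes was below 12. The share of all genes called also moved between fits, as the shares given above for some of them show. A changed count is therefore not by itself a result about the 36 genes. Fewer libraries also left fewer residual degrees of freedom. The cause was otherwise not tested.

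Gapdh, Pgam1, Pdk1 and Hif1a in WT, Pgam1 and Pdk1 in KO, and Slc2a1, Tpi1, Gapdh, Pgam1, Eno2, Pdk1 and Hif1a across genotypes kept their calls under every alternative run. The KO rise of Hif1a had an adjusted p of 0.0502 without the trend, and of Slc2a1 0.121 without replicate 2 of both TFH groups. No difference that changed sign had been called. Without replicate 2 of both TFH groups the KO difference was -0.078 for Hk2 and 0.0087 for Ldha, and with the myeloid covariate the naive genotype difference of Pkm was 0.019. With one library left out the KO difference of TFH and naive libraries ran from -0.078 to 0.74 for Hk2 and from -0.14 to 0.077 for Ldha. The TFH genotype difference of Slc2a1 ran from -9e-04 to 0.16 and its interaction from -0.082 to 0.28. Naive genotype differences ran from -0.19 to 0.16 for Slc2a1, -0.23 to 0.49 for Hk2, -0.095 to 0.076 for Pkm, -0.0115 to 0.20 for Ldha and -0.15 to 0.36 for Hif1a.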
